A study of Mus musculus with 16 samples.

Results

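The effect of a duplicated segment of chromosome 16 was measured in the hippocampus by setting 8 libraries of mice that carry the duplication against 8 libraries of mice that do not, out of 16 libraries in all. The carriers were 4 Dp16 libraries (2 male, 2 female) and 4 5xFAD-Dp16 libraries, the cross of both genotypes (4 male). The non-carriers were 4 wild-type C57BL/6J libraries and 4 5xFAD libraries, each with 2 males and 2 females. All mice were 5 months old. The libraries were chosen by the labelled genotype, with no measured value in the choice. The amyloid genotype and the sex were terms of the model. Each pooled carrier effect below is therefore an average of Dp16 against wild-type and 5xFAD-Dp16 against 5xFAD, and the 2 can differ. The labels do not say whether each library came from a separate mouse, so p-values measure the spread between libraries.

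Dp16 is a mouse model of Down syndrome in which the part of mouse chromosome 16 that matches the long arm of human chromosome 21 is present in an extra copy, while the other mouse regions orthologous to that chromosome are not. An extra copy can act on a tissue through the RNA of the genes it holds and, through their products, on genes elsewhere in the genome. 5xFAD mice carry human transgenes with familial Alzheimer disease mutations that are driven in neurons by the Thy1 promoter, and they build up amyloid plaques surrounded by reactive microglia. Transgene expression is driven by this promoter rather than by that of the mouse's own App gene. The RNA counts used here do not measure amyloid.

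Poly-A selected RNA gave between 17368777 and 25037769 counts per carrier library and between 15838097 and 23533855 per non-carrier library. Of 16684 genes tested, 105 lay in the segment, taken as GRCm38 chromosome 16 from the start of Lipi to the end of Zbtb21 (75540514 to 97962622), and 16579 lay outside it. The hippocampal markers were present in every group. The 13 tested markers of CA1 pyramidal cells summed to 549 to 1192 CPM (counts scaled to library size by the trimmed mean of M values, TMM) in carriers and 578 to 1171 CPM in non-carriers. The 17 tested genes of midbrain and hypothalamus summed to 9.61 to 141 CPM in carriers and 13.9 to 434 CPM in non-carriers. They were high in 5xFAD-Dp16 replicate 3 among carriers and in wild-type replicate 4 and 5xFAD replicates 2 and 4 among non-carriers. Where a list median moved by over 1.5 times without these 4 libraries, the main lists are given with both values.

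Outside the segment 6 of 16579 genes (0.0362%) passed in the pooled comparison at the threshold used. These were 2 higher genes, the agouti gene a and the iodide transporter gene Slc5a5, and 4 lower ones, the kinase subunit gene Pik3r3, the transcription factor gene Rfx5, the enzyme gene Cbs and the lncRNA gene Gm49980. In the segment 35 of 105 genes rose (33.3%) and none fell. Over all tested genes 41 of 16684 passed (0.246%), 37 of them higher (0.222%) and 4 lower (0.024%). The test was edgeR's quasi-likelihood test, and genes passed when the p adjusted by Benjamini-Hochberg over all 16684 genes was below 0.05. Before adjustment, 809 genes had p below 0.05 (4.85%), and 730 of them lay outside the segment (4.4% of the genes there), 272 higher (1.64%) and 458 lower (2.76%). Leaving out wild-type replicate 1 or wild-type replicate 3 each left 3 genes outside the segment.

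The segment encodes transcription factors, among them the ETS family members Gabpa and Ets2 and the basic leucine zipper factor Bach1, which all rose in carriers, and Runx1, which did not pass. Promoters of 4 of the 6 genes that passed outside the segment are shown, 2 with a motif match and 2 without, because they are sequences on which such factors could act. That of Cbs was searched too, and that of Gm49980 was not used here. They run from 250 bases before to 50 bases after the RefSeq start on GRCm38.p6, 5′ to 3′ on the strand of the gene, and capitals mark a motif match. The motifs searched on both strands were CCGGAAG for ETS factors, TGACTCA for BACH1 and AP-1, and TGTGGT for RUNX factors. No promoter shown held more than 1 match, so none overlapped. They lay in 8.86%, 5.20% and 16.8% of 32851 promoters of this length, in that order. Rfx5 held 1 TGACTCA match and a held 1 RUNX match, on the opposite strand. Slc5a5, Pik3r3 and Cbs (chr17:31637156-31637455, minus strand) held none. For Pik3r3 RefSeq lists 3 starts and 1 is shown. For a the RefSeq start lies inside the longer gene span of the annotation used for the counts.
Slc5a5 (chr8:70892708-70893007, minus strand): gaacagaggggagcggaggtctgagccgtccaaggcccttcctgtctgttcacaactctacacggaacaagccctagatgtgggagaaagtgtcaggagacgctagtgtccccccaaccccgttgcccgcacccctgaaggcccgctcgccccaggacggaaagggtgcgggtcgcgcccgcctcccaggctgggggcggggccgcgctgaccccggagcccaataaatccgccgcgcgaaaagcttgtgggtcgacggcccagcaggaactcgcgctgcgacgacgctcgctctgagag
Pik3r3 (chr4:116221358-116221657, plus strand): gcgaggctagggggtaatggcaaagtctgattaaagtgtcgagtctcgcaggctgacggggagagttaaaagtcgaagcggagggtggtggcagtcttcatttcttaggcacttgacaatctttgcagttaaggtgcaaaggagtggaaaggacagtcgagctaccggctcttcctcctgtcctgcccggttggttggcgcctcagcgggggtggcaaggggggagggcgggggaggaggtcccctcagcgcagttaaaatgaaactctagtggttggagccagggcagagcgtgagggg
Rfx5 (chr3:94953858-94954157, plus strand): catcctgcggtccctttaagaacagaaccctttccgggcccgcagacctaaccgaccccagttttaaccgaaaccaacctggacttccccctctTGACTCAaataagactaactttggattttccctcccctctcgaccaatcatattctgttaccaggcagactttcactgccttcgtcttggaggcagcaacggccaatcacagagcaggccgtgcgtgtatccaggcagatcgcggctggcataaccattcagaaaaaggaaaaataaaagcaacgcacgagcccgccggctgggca
a (chr2:155013320-155013619, plus strand): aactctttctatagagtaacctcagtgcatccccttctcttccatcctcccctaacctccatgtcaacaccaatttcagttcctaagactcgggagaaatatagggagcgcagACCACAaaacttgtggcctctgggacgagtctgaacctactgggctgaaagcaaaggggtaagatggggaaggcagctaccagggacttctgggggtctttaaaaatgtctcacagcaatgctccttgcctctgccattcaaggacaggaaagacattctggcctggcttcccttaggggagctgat

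The agouti gene a (ENSMUSG00000027596, chromosome 2, 154791402 to 155051012) encodes a signalling protein that directs pigment type in the skin. It had 36, 54, 31 and 45 counts in Dp16 libraries and none in the 4 wild-type libraries. It had 42, 57, 30 and 53 counts in 5xFAD-Dp16 libraries, against 0, 0, 0 and 3 in 5xFAD libraries. Every carrier library held at least 30 counts and 7 of 8 non-carrier libraries held none. The sums of 348 and 3 counts gave a ratio of 113 after scaling to library totals (95% exact conditional interval 38.4 to 551, counting error only), and edgeR's quasi-likelihood test gave an adjusted p of 1.38e-05. The level was low in carriers, at 2.18 ± 0.423 CPM (SD, n = 8). The annotated span of a also covers Raly on the same strand and Eif2s2 on the opposite strand, which had log2 fold changes of -0.21 and -0.14 and did not pass. The nearest tested genes beyond it were Chmp4b at -0.02 and Ahcy at 0.03.

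Coat-colour genes and Hprt fragments are common tags of the vectors used in chromosome engineering, so the other genes of that kind were read as well. The sources used here do not say which tags the Dp16 chromosome carries, and the part of a tag in the counts of a was not tested. Tyr, the tyrosinase gene of pigment synthesis, had 10 counts in carriers, all in 3 libraries, and 1 count in non-carriers. Krt14, a skin keratin gene whose promoter is used with agouti in some such vectors, had 4 counts in carriers and 12 in non-carriers. Hprt was not called, with a log2 fold change of -0.08 ± 0.150 (SE).

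Slc5a5 (ENSMUSG00000000792, chromosome 8, 70882889 to 70892757), the sodium and iodide symporter known from the thyroid, rose. Dp16 libraries had 38.7, 46.3, 44.4 and 38.3 CPM, against 29.0, 26.6, 27.6 and 36.0 CPM in wild-type libraries. 5xFAD-Dp16 libraries had 42.9, 37.9, 36.2 and 42.3 CPM, against 23.0002, 31.7, 24.7 and 24.7 CPM in 5xFAD libraries. All 8 carriers lay above all 8 non-carriers, by a narrow margin between 5xFAD-Dp16 replicate 3 and wild-type replicate 4. The log2 fold change was 0.55 ± 0.0900 (1.47-fold, adjusted p = 0.00824, edgeR), with 0.49 between Dp16 and wild-type and 0.62 between 5xFAD-Dp16 and 5xFAD. Its neighbours Ccdc124 and Map1s had log2 fold changes of -0.06 and 0.16 and did not pass.

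Pik3r3 (ENSMUSG00000028698, chromosome 4, 116221618 to 116303056), which encodes a regulatory subunit of class I phosphoinositide 3-kinase, fell. Dp16 libraries had 28.6, 29.6, 28.6 and 28.7 CPM, against 35.5, 37.2, 38.5 and 44.7 CPM in wild-type libraries. 5xFAD-Dp16 libraries had 23.8, 24.7, 28.2 and 29.1 CPM, against 36.5, 42.6, 34.8 and 39.0 CPM in 5xFAD libraries. The groups did not overlap in either background. Its pooled log2 fold change was -0.46 ± 0.0681 (27.3% lower, adjusted p = 0.00284, edgeR), with -0.43 without 5xFAD and -0.49 with it. The neighbours Mast2 and Pomgnt1 had -0.02 and -0.11 and did not pass.

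Rfx5 (ENSMUSG00000005774, chromosome 3, 94954075 to 94961561), a subunit of the RFX complex that binds promoters of MHC class II genes, fell. Dp16 libraries had 12.1, 11.1, 12.3 and 12.6 CPM, against 17.4, 16.5, 17.1 and 19.97 CPM in wild-type libraries. 5xFAD-Dp16 libraries had 10.98, 10.1, 14.99 and 12.2 CPM, against 15.3, 17.8, 17.8 and 15.3 CPM in 5xFAD libraries. Carriers and non-carriers did not overlap, with 5xFAD-Dp16 replicate 3 closest to the non-carriers. The log2 fold change was -0.50 ± 0.0901 (29.3% lower, adjusted p = 0.0202, edgeR), with -0.56 without 5xFAD and -0.43 with it. Of 20 tested antigen presentation genes, the class of genes in which RFX targets lie, none passed, 9 were higher and 11 lower, and their median log2 fold change was -0.02 beside -0.01 over all tested genes.

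Cbs (ENSMUSG00000024039, chromosome 17, 31608894 to 31637238), cystathionine beta-synthase, the first enzyme of transsulfuration, fell. Its human orthologue is on chromosome 21, but the mouse gene is outside the duplicated segment. Dp16 libraries had 23.8, 15.6, 18.1 and 18.05 CPM, against 37.1, 28.7, 31.8 and 27.3 CPM in wild-type libraries. 5xFAD-Dp16 libraries had 17.9, 17.3, 24.3 and 19.5 CPM, against 25.6, 25.7, 25.2 and 27.6 CPM in 5xFAD libraries. Every carrier was below every non-carrier, and the gap was wider without 5xFAD. Its pooled log2 fold change was -0.58 ± 0.106 (33.0% lower, adjusted p = 0.0237, edgeR), with -0.73 without 5xFAD and -0.40 with it. That difference between backgrounds did not pass (unadjusted p = 0.148). Cbs was the 1 member that passed of 19 tested transsulfuration and one-carbon genes, whose median was -0.00. Cth, the next enzyme of the pathway, had a log2 fold change of -0.29 and an adjusted p of 0.930. None of 31 tested orthologues of chromosome 21 genes on chromosome 10 passed (median 0.00), nor did any of the other 12 of 13 on chromosome 17 (median over all 13 -0.00), among them the Cbs neighbours U2af1 and Sik1 at -0.11 and -0.12.

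Gm49980 (ENSMUSG00000117465, chromosome 18, 30267249 to 30272133) is a lncRNA gene known by a clone name, and it was described after its values were seen. Dp16 libraries had 3.93, 3.53, 1.86 and 3.17 CPM, against 6.28, 6.24, 6.68 and 5.39 CPM in wild-type libraries. 5xFAD-Dp16 libraries had 2.60, 3.33, 2.28 and 1.58 CPM, against 4.92, 6.46, 4.64 and 3.75 CPM in 5xFAD libraries. Dp16 replicate 1 was above 5xFAD replicate 4, the only overlap. The log2 fold change was -0.94 ± 0.172 (48.0% lower, adjusted p = 0.0231, edgeR). Pik3c3, which starts 0.614 kb away on the same strand, had 0.03 and did not pass.

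**Figure D1:**
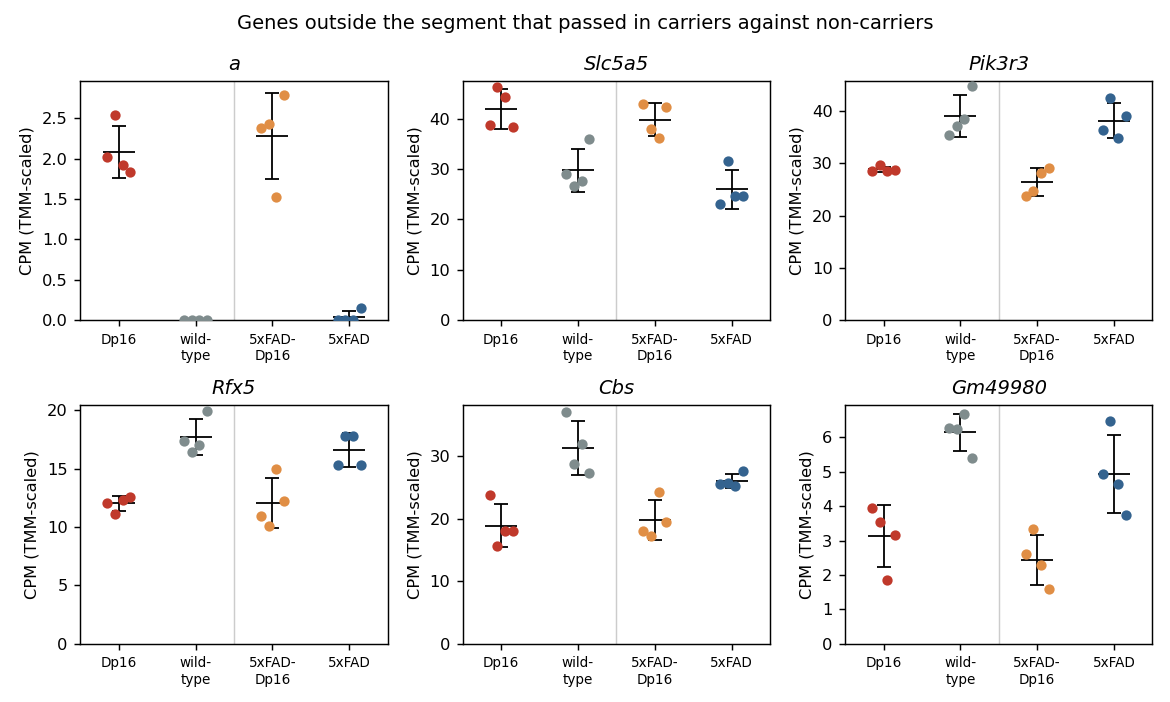
Level of the 6 genes outside the segment that passed, in TMM-scaled CPM on a linear axis, for Dp16, wild-type, 5xFAD-Dp16 and 5xFAD libraries. Points are libraries and bars the mean ± SD (n = 4). In each amyloid background the Dp16 group lies above its control for a and Slc5a5 and below it for Pik3r3, Rfx5, Cbs and Gm49980.

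The 5 genes other than Gm49980 showed no overlap between the 8 carrier and 8 non-carrier libraries. Such a gap was found in 11 of 16579 genes outside the segment (0.0663%) and in 25 of 105 segment genes (23.8%). Gaps within 1 amyloid background, named below for some genes, rest on fewer libraries and arise more readily. Their share of all genes is not given here. The calls of a, Slc5a5 and Pik3r3 held with each of the 16 libraries left out. The call of Cbs ended without wild-type replicate 1 or 3, Dp16 replicate 3 or 4, or 5xFAD-Dp16 replicate 1 or 2, where its adjusted p reached 0.104. The call of Rfx5 ended without wild-type replicate 1 or 3, Dp16 replicate 1, 2 or 4, 5xFAD-Dp16 replicate 1 or 5xFAD replicate 3, with an adjusted p of up to 0.0854. The call of Gm49980 ended without wild-type replicate 1 or 3, Dp16 replicate 4 or 5xFAD replicate 3, with an adjusted p of up to 0.102. All 6 genes passed without the 4 libraries high in midbrain genes. In the 10 male libraries a and Slc5a5 passed, and Pik3r3 had a log2 fold change of -0.41 with an adjusted p of 0.185. Cbs, Rfx5 and Gm49980 did not pass in males, with log2 fold changes of -0.67, -0.49 and -0.97 and adjusted p-values of 0.185, 0.487 and 0.535, in that order.

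Below the threshold, the genes outside the segment with the smallest p in each direction are given as values. Lcat, which esterifies cholesterol on lipoproteins, had 39.7, 40.5, 48.4 and 37.4 CPM in Dp16 libraries, against 28.3, 28.3, 32.1 and 32.4 CPM in wild-type libraries. It had 38.6, 47.1, 37.0 and 40.8 CPM in 5xFAD-Dp16 libraries, against 32.8, 41.2, 33.6 and 30.3 CPM in 5xFAD libraries. The groups were apart without 5xFAD and overlapped with it through 5xFAD replicate 2. Its pooled log2 fold change was 0.36 ± 0.0866, with an adjusted p of 0.194, and of 0.0115 once the 4 midbrain-rich libraries were left out. The other 5 genes with higher values were Chrna1, a nicotinic acetylcholine receptor subunit (1.08 ± 0.267), Cybrd1, a ferric reductase (0.79 ± 0.204), Reep6 (0.46 ± 0.117), the sorting nexin Snx32 (0.27 ± 0.0717) and the membrane protein gene Serinc5 (0.22 ± 0.0588), with adjusted p-values of 0.230 to 0.354.

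Among genes with lower values, Fcgr3, a low-affinity receptor for IgG found on microglia, had the smallest p. Dp16 libraries had 12.9, 9.37, 11.97 and 12.98 CPM, against 13.6, 13.8, 12.4 and 16.5 CPM in wild-type libraries. 5xFAD-Dp16 libraries had 26.6, 27.3, 25.98 and 27.3 CPM, against 42.0, 41.1, 32.5 and 39.0 CPM in 5xFAD libraries. 5xFAD-Dp16 libraries lay below all 5xFAD libraries, while Dp16 and wild-type libraries overlapped. The log2 fold change was -0.33 ± 0.0712 (adjusted p = 0.0959, edgeR), with -0.26 without 5xFAD and -0.40 with it, and the difference between those did not pass (unadjusted p = 0.316). Fbl, the nucleolar methyltransferase fibrillarin, had 18.4, 21.9, 19.9 and 23.04 CPM in Dp16 libraries, against 26.2, 25.2, 23.1 and 27.0 CPM in wild-type libraries. It had 21.7, 21.8, 22.5 and 21.4 CPM in 5xFAD-Dp16 libraries, against 28.2, 26.7, 24.9 and 28.5 CPM in 5xFAD libraries, a log2 fold change of -0.29 ± 0.0647 (adjusted p = 0.115). The carrier libraries lay below the non-carrier ones in both backgrounds. The other 4 were Myct1 (-1.45 ± 0.323), the zinc finger gene Zfp386 (-0.46 ± 0.106), the glypican gene Gpc5 (-0.29 ± 0.0691) and the chemokine gene Ccl25 (-0.73 ± 0.176), with adjusted p-values of 0.115 to 0.194. Of these 12 genes, 11 passed with DESeq2, the exception being Reep6.

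The 2 amyloid backgrounds share no library, so the carrier effect can be read in each. The readings are not independent, because 1 fit of all 16 libraries gave both the same estimates of spread and of sex. Fitted on the libraries of 1 background alone, 4 genes passed without 5xFAD and 0 with it. These 2 counts are not alike, because both fits had a sex term and all 4 5xFAD-Dp16 libraries were male. With 5xFAD the carrier effect therefore rested on the 2 male 5xFAD libraries as controls. The counts that follow are from the shared fit. Between Dp16 and wild-type 14 genes passed (0.0839%), and between 5xFAD-Dp16 and 5xFAD 9 passed (0.0539%). Outside the segment a was the gene that passed in both. Over 16579 genes outside the segment the log2 fold changes of the 2 backgrounds had a Pearson correlation across genes of 0.0908, and 59.2% had the same sign. In the segment 88.6% of the 105 genes had the same sign. All 6 genes called outside it had the same sign in both backgrounds. Of 14675 genes outside the segment with at least 1 CPM, 98.7% changed less than 1.5-fold in the pooled fit, in either direction, at a median SE of 0.117. In simulated data the pooled test recovered 19 of 50 genes changed 1.5-fold (38%) and 36 of 50 changed 2-fold (72%). A gene or list with no call can therefore still hold changes of about 1.5-fold or less.

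**Figure D2:**
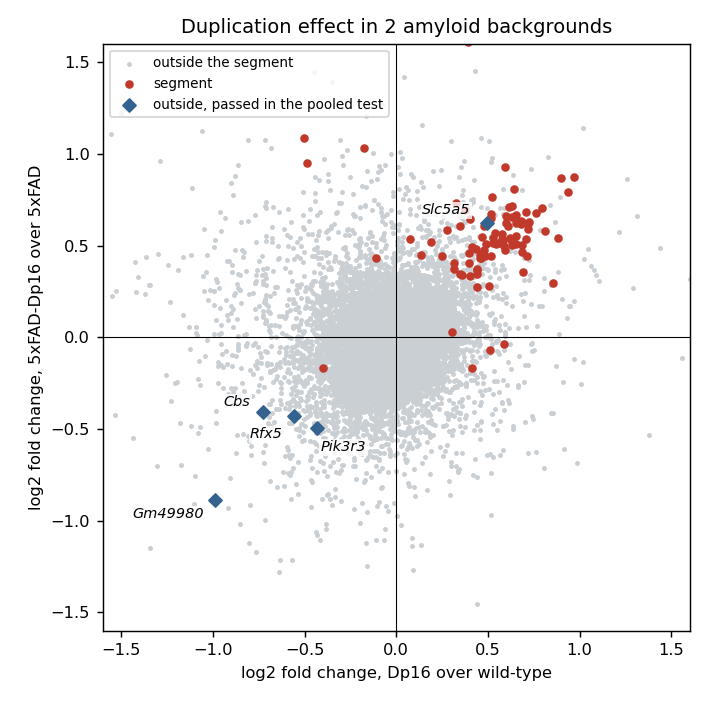
Log2 fold change of 5xFAD-Dp16 over 5xFAD (vertical axis) against that of Dp16 over wild-type (horizontal axis) for genes of at least 1 CPM, with 51 genes beyond the axis limits, a among them. Segment genes lie mostly in the upper right around 0.5 on both axes, and genes outside the segment form a cloud around 0 with Slc5a5 at the upper right and the 4 genes that fell at the lower left.

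The test of the difference between backgrounds called 0 of 16684 genes with edgeR's quasi-likelihood test (332 at an unadjusted p below 0.05, 1.99%) and 0 with DESeq2. Tlr7, an endosomal receptor for single-stranded RNA, was among the 5 genes with the smallest p. It had 3.65, 4.24, 3.66 and 2.44 CPM in Dp16 libraries, against 2.24, 2.05, 1.78 and 1.68 CPM in wild-type libraries. It had 5.04, 6.19, 3.799 and 4.00 CPM in 5xFAD-Dp16 libraries, against 8.24, 5.51, 6.54 and 4.58 CPM in 5xFAD libraries. Carriers were thus above non-carriers without 5xFAD and overlapped with them, mostly below, with 5xFAD. The 5xFAD libraries at 8.24 and 5.51 CPM were female, and all 5xFAD-Dp16 libraries were male. A sex difference present only with amyloid has no term in the model, and the part of sex here was not tested. The pooled log2 fold change of 0.24 ± 0.230 averages effects of 0.85 and -0.41, whose difference had an unadjusted p of 0.00215 and an adjusted p of 1.00.

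The genes of the segment checked the genotype labels. Across the 105 tested genes the median log2 fold change was 0.53 (1.45-fold), 99 were higher and 6 lower, and all 90 protein-coding ones were higher, between 0.14 and 0.97. Per library, the median over segment genes of the log2 ratio to the non-carrier mean was 0.51 to 0.60 in Dp16 and -0.10 to 0.10 in wild-type. It was 0.40 to 0.55 in 5xFAD-Dp16 and -0.03 to 0.05 in 5xFAD. No library lay with the other genotype. The 95% interval of the fold change held 1.5, the ratio of 3 gene copies to 2, in 97 of the 105 genes and lay below it in 8. Of the 35 genes that rose, 21 passed neither between Dp16 and wild-type nor between 5xFAD-Dp16 and 5xFAD, so they were called by pooling alone.

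Ifnar1, which encodes 1 chain of the receptor for type I interferons, had the smallest p in the segment. Dp16 libraries had 57.1, 53.6, 58.0 and 62.6 CPM, against 35.5, 34.7, 36.6 and 33.5 CPM in wild-type libraries. 5xFAD-Dp16 libraries had 56.8, 54.2, 51.2 and 55.1 CPM, against 35.7, 37.7, 33.6 and 38.2 CPM in 5xFAD libraries. Carriers and non-carriers were far apart, and the fold change was 1.58 (log2 0.66 ± 0.0567, adjusted p = 1.61e-05, edgeR). The other receptor subunits rose too: Ifnar2 1.54-fold, Ifngr2, of the type II interferon receptor, 1.59-fold, and Il10rb, shared by IL-10 and type III interferon receptors, 1.55-fold (adjusted p = 0.0316). The call of Il10rb ended in 11 of the 16 fits that left out 1 library and when the 4 libraries rich in midbrain transcripts were left out (adjusted p = 0.0717).

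App, the amyloid precursor protein gene, had 3134, 3142, 3257 and 3023 CPM in Dp16 libraries, against 2258, 2006, 2151 and 1715 CPM in wild-type libraries. It had 3136, 3223, 2637 and 2849 CPM in 5xFAD-Dp16 libraries, against 1874, 1888, 1902 and 1645 CPM in 5xFAD libraries. The groups did not overlap in either background, and App rose 1.56-fold (log2 0.64 ± 0.0741, adjusted p = 0.000228, edgeR, and 0.0554 in males alone). The kinase gene Dyrk1a rose 1.5-fold, with 144 ± 11.9 CPM in carriers and 95.1 ± 6.04 CPM in non-carriers, and Rcan1, an inhibitor of calcineurin, 1.49-fold, with 72.3 ± 4.48 CPM in carriers and 48.5 ± 2.62 CPM in non-carriers (SD, n = 8 each). Others with the smallest p were Gart of purine synthesis (1.45-fold), the ubiquitin ligase gene Ttc3 (1.43-fold), the chromatin protein gene Brwd1 (1.5-fold) and the DnaJ family member Dnajc28 (1.58-fold). At the low end, the protease gene Adamts5 (0.14 ± 0.244), Pcp4, a calmodulin regulator of CA2 neurons (0.17 ± 0.275), the host transcript Mir99ahg (0.14 ± 0.182) and Gm9843 (-0.29 ± 0.149) did not pass.

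No gene beside the segment passed. The nearest tested gene before the segment was the lncRNA gene Gm49678, named after its values were seen. Its start lies 0.152 Mb before the start of Lipi. It averaged 1.42 CPM in carriers and 0.738 CPM in non-carriers, a log2 fold change of 0.99 ± 0.309 (unadjusted p = 0.00517, adjusted p = 0.595, edgeR). The 5 nearest genes before Lipi with a symbol other than a clone name had log2 fold changes of 0.05 (Robo2), 0.12 (Robo1), -0.09 (Gbe1), 0.02 (Cadm2) and 0.26 (Vgll3), and none passed. Past Zbtb21, the last genes tested on the chromosome, B230307C23Rik and A630089N07Rik, had -0.13 and 0.10. Over the 403 tested chromosome 16 genes outside the segment the median was -0.01, 23 had an unadjusted p below 0.05 (5.71%) and none passed.

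**Figure D3:**
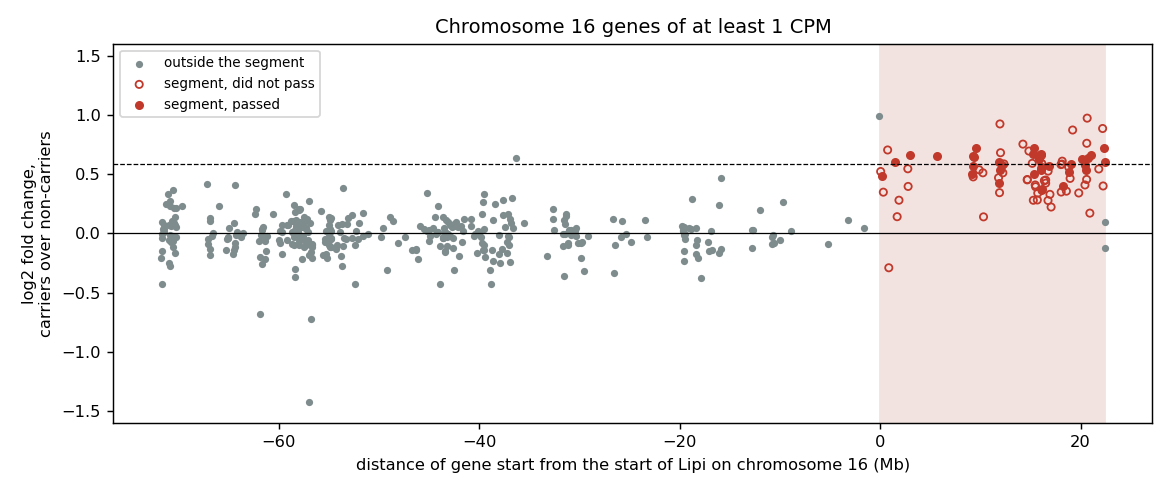
Log2 fold change of carriers over non-carriers for 455 chromosome 16 genes of at least 1 CPM, by distance of the gene start from the start of Lipi in Mb, with the segment shaded and a dashed line at a 1.5-fold change. Genes outside scatter around 0 and genes in the segment around the dashed line, with filled points for those that passed.

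Microglial genes outside the segment tended to lower values, with no call. Of 16 tested genes of homeostatic microglia, 13 were lower and 5 had an unadjusted p below 0.05 in that direction, where 2.75% of all genes did. Their median log2 fold change was -0.14, beside -0.01 over all genes, with -0.19 without 5xFAD and -0.10 with it. It was -0.05 in male libraries alone, -0.09 without wild-type replicate 3, -0.22 without 5xFAD replicate 4 and -0.22 without the 4 libraries high in midbrain genes. In bulk RNA, fewer cells of a type and less RNA per cell cannot be told apart. The list was also higher with the amyloid genotype. Its score, the mean centred log2 CPM of its members, was -0.35 to -0.24 in wild-type and 0.11 to 0.88 in 5xFAD libraries. The name of the list therefore does not say which microglial state was lower in carriers, and that was not tested. Members with small p-values included Trem2, a lipid receptor of microglia, and Gpr34, a lysophospholipid receptor.

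Trem2 had 6.80, 7.96, 8.87 and 8.95 CPM in Dp16 libraries, against 9.59, 9.38, 9.89 and 12.6 CPM in wild-type libraries. It had 39.7, 41.8, 39.1 and 30.0 CPM in 5xFAD-Dp16 libraries, against 74.4, 52.6, 47.3 and 49.9 CPM in 5xFAD libraries. Carriers were below non-carriers in each background without overlap. All 5xFAD-Dp16 libraries were male, and the 2 male 5xFAD libraries, replicates 3 and 4, had 47.3 and 49.9 CPM. The part of sex in these values was not tested. Its pooled log2 fold change was -0.41 ± 0.109 (adjusted p = 0.344, edgeR). Gpr34 had 12.3, 16.003, 13.7 and 12.7 CPM in 5xFAD-Dp16 libraries, against 26.6, 22.2, 21.7 and 23.3 CPM in 5xFAD libraries, and Dp16 and wild-type overlapped. Its values were lower in every 5xFAD-Dp16 library than in any 5xFAD library. The pooled log2 fold change of Gpr34 was -0.49 ± 0.132, and it did not pass.

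Of 28 tested genes of disease-associated microglia, the state found around plaques, 21 were lower and none passed (median -0.09). All 4 5xFAD-Dp16 libraries were male and 2 of the 4 5xFAD libraries female. A sex difference present only with amyloid has no term in the model. H2-D1 of MHC class I had a higher value (0.29 ± 0.0876) and the tetraspanin gene Cd9 a lower one (-0.22 ± 0.0916). Of 16 complement genes, 10 were lower and none passed. Higher values with an unadjusted p below 0.05, found in 2.1% of all genes, were seen for 3: C3 (0.66 ± 0.195), C4b (0.43 ± 0.190) and C1s1 (0.57 ± 0.259).

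Interferon response genes, which the receptors in the segment control, lay slightly higher with no call. Of 43 tested, 36 were higher, 4 of them with an unadjusted p below 0.05 where 2.1% of all genes had one, and the median log2 fold change was 0.11. Of these, Mx2 (1.17 ± 0.369) is itself in the segment. Irf7, the master transcription factor of the response, had 3.48, 2.54, 2.73 and 5.13 CPM in Dp16 libraries, against 1.66, 2.88, 1.34 and 3.62 CPM in wild-type libraries. It had 6.62, 4.48, 5.42 and 10.4 CPM in 5xFAD-Dp16 libraries, against 5.43, 4.46, 6.26 and 3.99 CPM in 5xFAD libraries. Carriers and non-carriers overlapped in both backgrounds (0.63 ± 0.205, adjusted p = 0.722). The score of the list, the mean centred log2 CPM of its members, was -0.38 to -0.01 in Dp16 and -0.68 to -0.29 in wild-type, and 0.16 to 0.80 in 5xFAD-Dp16 and 0.19 to 0.47 in 5xFAD, with overlap in both. The median was 0.07 without Dp16 replicate 4, 0.18 without 5xFAD replicate 3 and 0.19 without the 4 midbrain-rich libraries. Of 20 genes of Janus kinases, STATs and their regulators, 12 were higher and none passed (median 0.07).

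**Figure D4:**
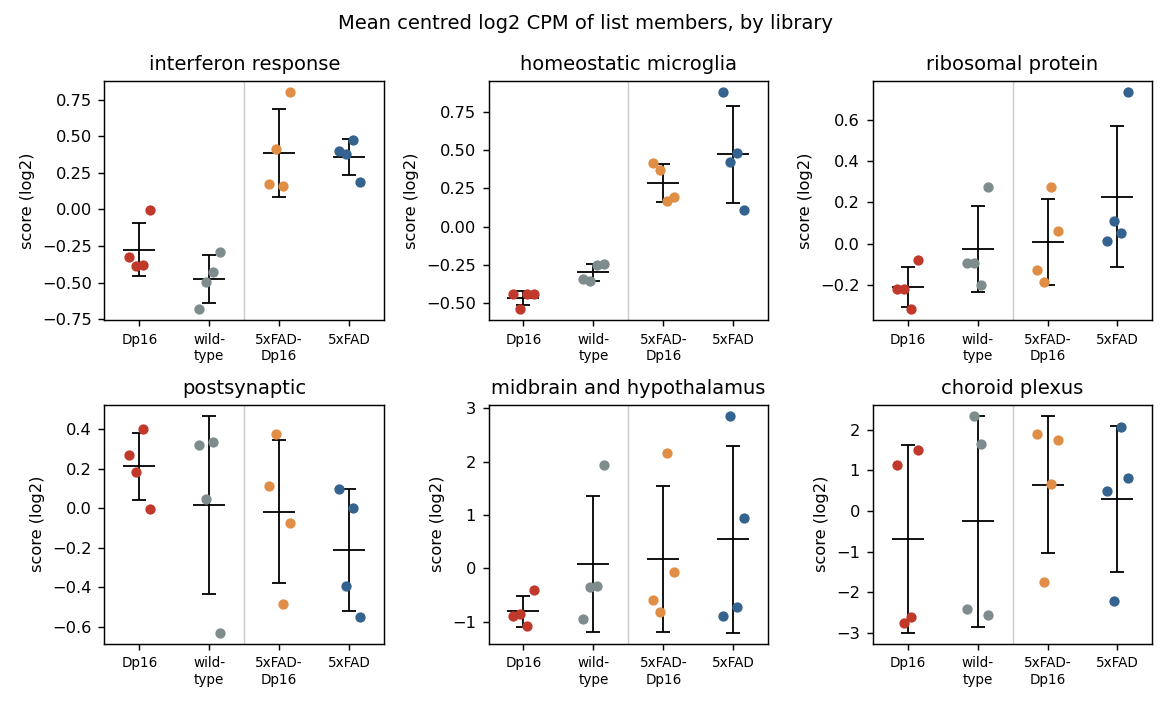
Score of 6 gene lists, the mean over members of log2 CPM centred on its mean over the 16 libraries, in Dp16, wild-type, 5xFAD-Dp16 and 5xFAD libraries, with mean ± SD (n = 4). The homeostatic microglia score was lower in each Dp16 library (-0.54 to -0.44) than in each wild-type library (-0.35 to -0.24), and overlapped between 5xFAD-Dp16 (0.17 to 0.42) and 5xFAD (0.11 to 0.88), while the midbrain score was set by a few libraries and the choroid plexus score spread widely within every group.

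Some lists moved together in carriers and at the same time with the tissue makeup of the libraries. All 52 tested ribosomal protein genes were lower and none passed (median -0.22). Of these, 7 had an unadjusted p below 0.05, where 2.75% of all genes were lower at that p. The median was -0.08 when those 4 libraries were left out and -0.09 without 5xFAD replicate 4 alone, the library with the highest score of the list. Nuclear genes of the respiratory chain were lower in 38 of 40 (median -0.13), and the median was -0.01 without the 4 libraries. Postsynaptic genes were higher in 25 of 25 (median 0.12) and presynaptic genes in 23 of 25 (median 0.11), with medians of 0.02 and 0.04 without the 4 libraries. Markers of excitatory neurons were higher in 13 of 13 (median 0.15), with a median of -0.00 without them. Single libraries also moved these medians: to -0.02 for respiratory, 0.05 for postsynaptic and 0.05 for presynaptic genes without 5xFAD replicate 4, and to 0.04 for excitatory markers without wild-type replicate 4. No member of these lists passed. The genes of midbrain and hypothalamus were lower in 14 of 17 (median -0.51, and -0.04 without the 4 libraries, -1.09 without 5xFAD and 0.12 with it), those of the thalamus in 15 of 16 (median -0.34, and -0.07) and those of the choroid plexus in 16 of 18. The thalamus genes summed to 449 to 586 CPM in carriers and 454 to 1027 CPM in non-carriers. The choroid plexus genes summed to 81.1 to 4834 CPM in carriers and 67.7 to 6909 CPM in non-carriers, and their median was -0.25 over all 16 libraries, -0.90 without 5xFAD and 0.31 with it. It was -0.88 without the 4 libraries and 0.21 without wild-type replicate 2. No listed marker of these 3 tissues was at 0 in every library. The part of tissue makeup in the ribosomal, respiratory and synaptic values was not tested beyond these fits.

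**Figure D5:**
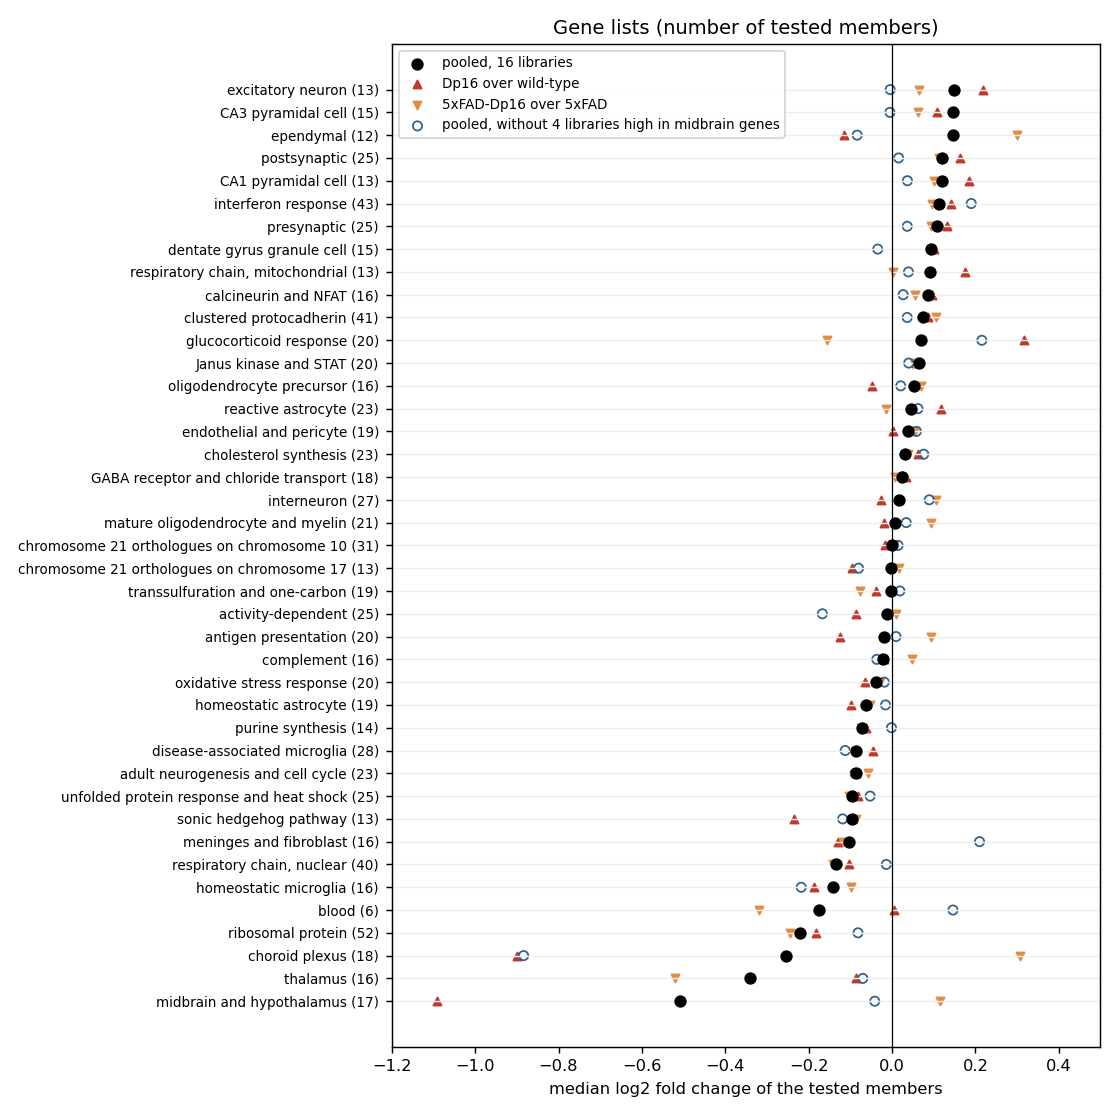
Median log2 fold change of the tested members of each gene list (number of members in brackets): carriers over non-carriers in all 16 libraries (black), Dp16 over wild-type and 5xFAD-Dp16 over 5xFAD (triangles), and the pooled value without the 4 libraries high in midbrain genes (open circles). Apart from lists of other tissues, the pooled medians lie between -0.22 and 0.15, and the open circles of the ribosomal, nuclear respiratory, synaptic and excitatory neuron lists lie closer to 0 than the black points.

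Other pathways tied to genes of the segment showed no call. Without the 4 midbrain-rich libraries the medians given here were 0.03 for calcineurin, -0.00 for purine, -0.02 for oxidative stress and -0.05 for unfolded protein genes. Of 16 calcineurin and NFAT genes, which Rcan1 and Dyrk1a regulate, 12 were higher (median 0.09). Of 14 purine synthesis genes other than Gart, 13 were lower (median -0.07). Of 20 genes of the oxidative stress response, which Bach1 represses, 13 were lower (median -0.04), among them the cystine transporter gene Slc7a11 (-0.29 ± 0.106). Of 13 sonic hedgehog genes, a pathway that supports growth of hippocampal progenitors, 9 were lower (median -0.10), among them the target Gli1, with 1.37 ± 0.436 CPM in carriers and 2.71 ± 1.06 CPM in non-carriers (SD, n = 8 each, log2 -0.85 ± 0.274, adjusted p = 0.698, edgeR). Of 23 genes of adult neurogenesis and the cell cycle, 14 were lower (median -0.09), and Dcx of immature neurons had a log2 fold change of -0.20 ± 0.0979. Of 25 genes of the unfolded protein response and heat shock, 17 were lower (median -0.10). Of these, 4 had an unadjusted p below 0.05, where 2.75% of all genes were lower at that p. The secreted stress protein gene Manf had 46.1 ± 4.35 CPM in carriers and 56.2 ± 5.06 CPM in non-carriers (log2 -0.27 ± 0.0739, adjusted p = 0.422, n = 8 each, edgeR), and the chaperone gene Hspa5 had a log2 fold change of -0.24 ± 0.0882.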

How the data were processed

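Poly-A RNA-seq of hippocampus gave 16 libraries, 4 for each of 4 genotypes. The authors deposited raw read counts for 55385 genes and RPKM values, which were a rescaling of the deposited counts in 27505 of 27505 genes (relative tolerance 1e-06). RPKM was used only for that check. Per the submitters' processing notes the tools were bcl2fastq, FastQC 0.11.5, HISAT2 2.1.0, SAMtools 1.5 and HTSeq 0.6.1 on GRCm38. Per the labels' protocols the libraries were strand-specific; the strand setting of the counting, not given in the sources used here, is unknown. Overlapping and antisense genes and near-identical copies are therefore uncertain.

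Counts were analysed with edgeR 4.0.16 (R 4.3.3): filterByExpr over the 4 genotypes, TMM scaling and a robust quasi-likelihood fit with terms for duplication, amyloid genotype and sex. A fit with 1 term per genotype gave the effects within each background and their difference. SE is the log2 fold change over the root of its F value, and list scores used a prior count of 2. Coordinates came from a GRCm38 annotation that held 55144 of the 55385 identifiers, and promoters from RefSeq (GRCm38.p6). Alternatives were DESeq2 1.42.0, other scalings, filters and terms, subsets of libraries, each library left out, and the replicate number as a block. The scripts were first tested on simulated data.

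Members, gene lists and the rule for named genes were chosen with earlier results of these data known. The rule took, outside the segment, up to 15 genes with the largest change that passed in each direction and the 6 with the smallest p that did not, with at least 1 CPM and a symbol other than a clone name. In the segment it took the 8 with the smallest p, App, Dyrk1a, Rcan1, 4 receptor genes and the 4 lowest. It also took the 5 genes nearest each end, up to 3 members per list (some are not reported here), and the 5 with the smallest p for the difference between backgrounds. Gm49980, Gm49678, genes beside called genes, genes past Zbtb21 and Cth were named after their values were seen.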

Additional observations from a re-analysis of the deposited data

Results flagged for a closer look

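Each genotype has 4 libraries, and a library was marked where its gap to the nearest other library exceeded Dixon's 95% critical value for 4 samples. Of 348 groups examined, 26 were marked (7.47%), where chance marks about 1 in 20. Their part in the results was not tested beyond the fits without single libraries.

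Among genes outside the segment, a stood apart in 5xFAD replicate 4 at 0.148 CPM, the 3 counts named above. Pik3r3 stood apart in Dp16 replicate 2 at 29.6 CPM, with the other Dp16 libraries at 28.6 to 28.7. Chrna1 stood apart in 5xFAD-Dp16 replicate 3 at 1.57 CPM. Myct1 stood apart in 5xFAD-Dp16 replicate 4 at 1.21 CPM and in wild-type replicate 1 at 1.27 CPM. The adjusted p of Myct1 was 0.0254 without that 5xFAD-Dp16 library. Genes read for the difference between backgrounds stood apart in 5xFAD-Dp16 replicate 2 (Cfap100, 2.26 CPM), Dp16 replicate 1 (Rhbdl2, 0.393 CPM) and wild-type replicate 4 (Frem3, 4.39 CPM). Hprt stood apart in wild-type replicate 4 at 123.8 CPM and in 5xFAD replicate 4 at 157.7 CPM, both libraries high in midbrain genes.

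In the segment and beside it, Gart stood apart in Dp16 replicate 1 at 50.7 CPM and Ifngr2 in Dp16 replicate 2 at 110.5 CPM. Il10rb stood apart in wild-type replicate 1 at 5.598 CPM. App at 1645 CPM and Pcp4 at 272.3 CPM stood apart in 5xFAD replicate 4. Vgll3 stood apart in 5xFAD-Dp16 replicate 1 at 9.51 CPM.

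Of the list scores, in Dp16 libraries those of the interferon response (replicate 4, -0.00636), homeostatic microglia (replicate 2, -0.537) and the sonic hedgehog pathway (replicate 1, 0.116) stood apart. In 5xFAD-Dp16 libraries those of reactive astrocytes (replicate 3, -0.0524), transsulfuration and one-carbon genes (replicate 2, -0.0767) and chromosome 21 orthologues on chromosome 10 (replicate 1, 0.0136) did. In wild-type libraries those of disease-associated microglia (replicate 1, -1.06) and CA1 pyramidal cells (replicate 4, -0.881) did. In 5xFAD libraries those of endothelial cells and pericytes (replicate 2, 0.332) and ribosomal proteins (replicate 4, 0.735) did.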

How the results depend on the processing

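The count of 6 genes outside the segment was 28 with DESeq2 (10 higher, 18 lower), 132 without the low-count filter (24 higher, 108 lower), 12 with tissue scores as covariates, 2 in males, 1 in libraries without 5xFAD and 0 in libraries with 5xFAD. All 6 were among those called by DESeq2, without the filter and with tissue scores. The count of 35 in the segment was 53 with DESeq2, 60 without the filter, 53 with tissue scores, 53 without the 4 libraries high in midbrain genes, 18 in males, 3 without 5xFAD and 0 with 5xFAD only. Fits on males or 1 background have fewer libraries, and with 5xFAD only the sex term leaves the 2 male 5xFAD libraries as controls. With each library left out in turn the counts were 3 to 7 outside and 25 to 38 in the segment, and the segment median was 0.50 to 0.56. With the replicate block 9 genes outside and 39 in the segment passed. Deviations correlated above 0.1 in 16 of 24 same-numbered pairs (median r 0.305) and 29 of 72 others (median r -0.114). Of 16 libraries, 5 correlated best with their own number. The main fit has no term for the numbers, and what same-numbered libraries share was not tested. The difference between backgrounds stayed at 0 genes with DESeq2, the block and each library left out. Depth limits genes under 1 CPM, and all 5xFAD-Dp16 mice were male, so sex rests on the other genotypes.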

Other observations

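Several groups not described above lay close to the median of all genes. Of 21 myelin and mature oligodendrocyte genes, 11 were higher and 10 lower (median 0.01), and none passed. Of 16 oligodendrocyte precursor genes, 10 were higher (median 0.05), while Olig1, which lies in the segment, had a log2 fold change of 0.34 ± 0.0866 (adjusted p = 0.250, edgeR). Of 19 homeostatic astrocyte genes, 16 were lower (median -0.06), among them the gap junction gene Gja1 at -0.17 ± 0.0771. That median was -0.02 without the 4 midbrain-rich libraries and 0.02 in males. Of 27 interneuron genes, 17 were higher (median 0.02), with the cannabinoid receptor gene Cnr1 at 0.30 ± 0.133. Of 41 clustered protocadherin genes, 27 were higher (median 0.07), although reads of near-identical copies can be split between them. No member of these lists outside the segment passed. Without the 4 midbrain-rich libraries the medians were 0.03 for myelin, 0.02 for precursor, 0.09 for interneuron and 0.04 for protocadherin genes.

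Glucocorticoid-responsive genes had a median of 0.07 over 20 members, 0.32 between Dp16 and wild-type and -0.16 between 5xFAD-Dp16 and 5xFAD; the difference between these medians was not tested. The pooled median was 0.22 without the 4 midbrain-rich libraries. The metallothionein genes Mt1 (0.21 ± 0.0890) and Mt2 (0.33 ± 0.119) were higher in carriers and did not pass. Activity-dependent genes had a median of -0.01 over 25 members and of -0.17 without those libraries, and Btg2 (-0.59 ± 0.205), Dusp1 (-0.40 ± 0.147) and Ier2 (-0.47 ± 0.190) had lower values with no call.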
